A study of Canis lupus familiaris with 10 samples.

Results

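The regions described here are stretches of accessible chromatin that the canine B-cell lymphoma line 17-71 had in every control library and that were no longer called after inhibition of PRMT5, at places where the canine B-cell lymphoma line CLBL-1 had no peak with or without the inhibitor. They were selected on which of the 10 ATAC-seq libraries had a peak call there, so their loss after C220 is the rule and not a finding. Touching or overlapping peaks of the 10 lists were merged into 59420 regions, and a region was kept when B1, B2 and B3 each had a peak in it and when neither B4 nor B6 nor any CLBL-1 library did. The rule found 1940 regions (3.26% of all merged regions), and they lie on all 39 chromosomes in the lists (the autosomes and X).

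B1, B2 and B3 are control libraries of 17-71, and B4 and B6 are libraries of 17-71 treated with 100 nM of the selective PRMT5 inhibitor C220 (PR220 in the sample labels), all collected on day 4. C2 and C3 are control libraries of CLBL-1, and C4, C5 and C6 are CLBL-1 libraries treated with 100 nM C220, all collected on day 2. Day and cell line cannot be told apart in this design, so control and C220 libraries were set against each other within a line only. Both lines carry the label lymph node as their source and are established lines in culture. Per the methods, outlier samples were left out after a comparison of the libraries. B-cell marker genes could not be looked up in the peak lists because no annotation of CanFam3.1 was used.

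PRMT5 symmetrically dimethylates arginines of histones and of many other proteins, among them the Sm proteins of the spliceosome, and its marks on the tails of H3 and H4 are known mostly for gene silencing. In ATAC-seq a transposase cuts DNA that nucleosomes leave free, so a peak marks a promoter, an enhancer or another accessible site. Sites far from promoters are the ones that differ most between cell types, and lines of a shared lineage keep private sets of them. In a culture measured in bulk, fewer cells with an accessible site and less accessibility in each cell cannot be told apart.

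Depth limits every statement on a lost peak. The lists hold no read counts, so depth is unknown, and no interval that needs it is given. The 17-71 control libraries held 44378 peaks (B1), 33358 peaks (B2) and 30943 peaks (B3), and the C220 libraries held 22076 peaks (B4) and 27646 peaks (B6). Every control library of 17-71 thus had a longer list than each C220 library. Treatment and list length cannot be told apart in the deposited lists of 17-71, and the part of depth in the loss was not tested. Peaks carry running numbers that go past the list lengths, so the lists do not hold every numbered peak. By the largest number, B6 (65203) passed the control B3 (62747). B1 (73894) and B2 (68869) stayed above both C220 libraries, and B4 was the lowest (56211). Why numbers are absent is unknown, and whether lost regions had such peaks was not tested. Single libraries weigh on the count: without B6 the rule would find 4585 regions, without B3 3568 and without B2 3042. Leaving out a library drops a condition of the rule, so a higher count is built in and only its size varies.

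Most regions that 17-71 controls shared were still called after C220. Of the 26698 regions with a peak in B1, B2 and B3, 11531 had no peak in any CLBL-1 library. Among those 11531 regions, 6499 (56.4%) had a peak in B4 and in B6, 2641 (22.9%) in B6 only, 451 (3.91%) in B4 only, and 1940 (16.8%) in neither. The last count is what the rule fixes, and nothing is read from it. B6 kept many more of these peaks than B4, which had the shortest list of the 10 libraries.

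The share lost among regions with a CLBL-1 peak depended on how many CLBL-1 libraries had it. Pooled, 11102 of 15167 regions (73.2%) had a peak in B4 and in B6, and 1440 (9.49%) had a peak in neither. With a peak in 1, 2 or 3 CLBL-1 libraries the share lost was 20.2%, 20.2% and 20.8%, higher than the 16.8% with none, and in 4 it was 16.6%. The 11482 regions that all 5 CLBL-1 libraries had were much lower, at 6.33%, and make up most of the pooled group. None of these differences was tested. Over all 26698 regions shared by the controls, 3380 (12.7%) were lost, which is 5.69% of all merged regions. The reverse pattern, a peak in B4 and in B6 and in no control library, held for 103 regions. That is 0.173% of all merged regions, and 83 of the 103 had no CLBL-1 call. This pattern needs calls in the shorter lists of 17-71 and none in the longer ones. The counts of 3380 and 103 therefore do not compare directions of change. Among regions with no 17-71 call, 71 were lost and 249 were gained in CLBL-1 with C220. The difference between losses and gains was not tested in either line. The lists of CLBL-1 held 23822 peaks (C2) and 23318 peaks (C3) in control libraries and 27026 peaks (C4), 27247 peaks (C5) and 23082 peaks (C6) with C220, so their lengths overlapped between treatments.

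**Figure D1:**
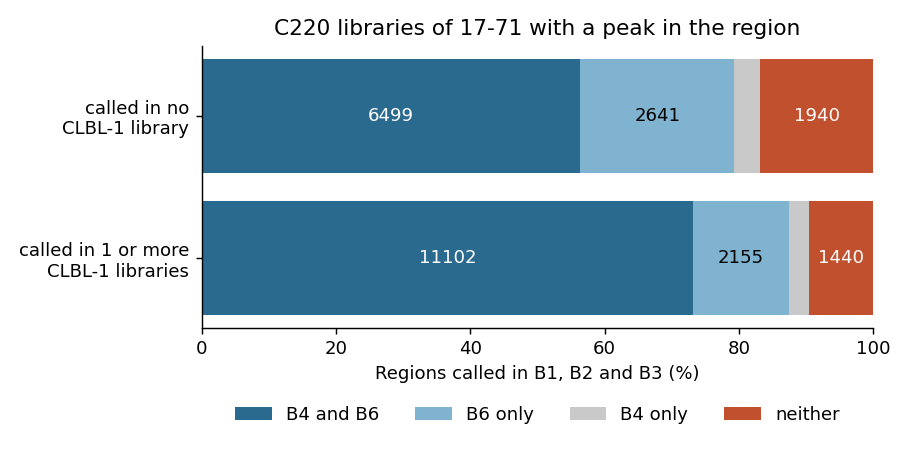
The bars show, in percent of the regions with a peak in all 3 control libraries of 17-71, in which C220 libraries of that line (B4, B6) a peak was called, for regions with no CLBL-1 call (top) and with 1 or more (bottom), with numbers of regions in the bars. The red part of the top bar holds the 1940 regions described here, 16.8%, against 9.49% in the bottom bar.

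The lost regions were weak in the controls. The caller's −log10 p must reach 5 for a peak to be listed, and its fold enrichment is the ratio of fragment pileup to the local background, averaged over the peak. The median fold enrichment of the lost regions was 3.88 in B1, 3.18 in B2 and 3.27 in B3. The regions that 17-71 alone had and that stayed called in B4 and B6 had medians of 4.86, 3.87 and 3.83 in the same libraries. Median −log10 p was 8.67 in B1, 6.74 in B2 and 6.50 in B3 for the lost regions, against 19.2, 13.2 and 12.002 for the regions that stayed. Both measures were lower for the lost regions in 3 of 3 control libraries. Because these values decide whether a peak is called, they are part of the choice and were not tested. The lost regions that CLBL-1 does have were close to the regions described here, with a median fold enrichment of 4.00, 3.22 and 3.30.

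**Figure D2:**
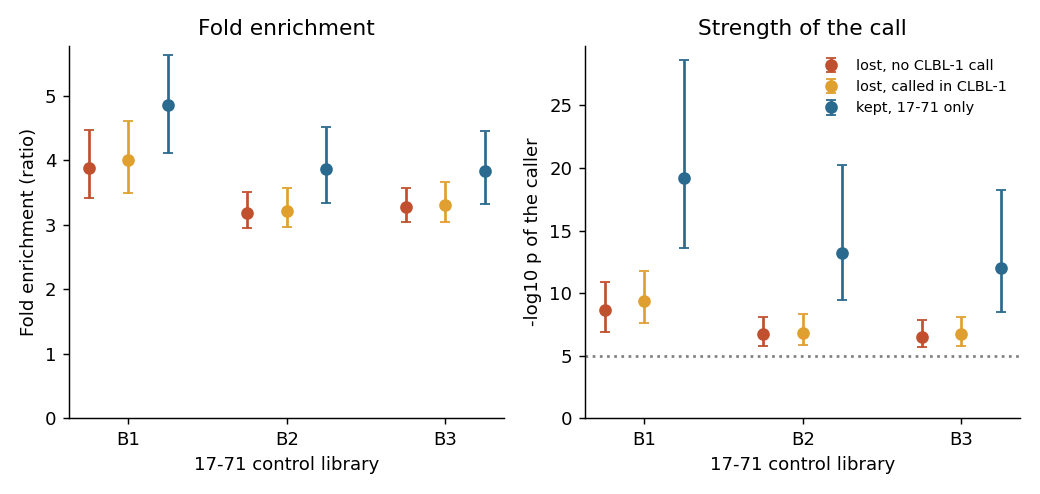
Points give the median and bars the interquartile range of fold enrichment (left) and −log10 p (right) in each control library of 17-71, for lost regions with no CLBL-1 call, lost regions with a CLBL-1 call and regions that only 17-71 has and that stayed called in B4 and B6. The dotted line is the cutoff of 5. Both lost groups sit lower than the regions that stayed in B1, B2 and B3.

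Within each control list the peaks of the lost regions ranked low. Ordered by −log10 p, their median rank was 27472 in B1, 24519 in B2 and 23611 in B3, that is, after 61.9%, 73.5% and 76.3% of the list. Only 109 of the 1940 regions had peaks among the 20000 strongest in B1, B2 and B3 at once. The weakest of the 3 control values was found in B3 for 925 regions, in B2 for 780 and in B1 for 235. The largest fold enrichment of a region over the controls was at most 1.5 times the smallest in 1695 regions (87.4%). For −log10 p, the median ratio of the strongest to the weakest control was 1.48. Every region had to be called in B1, B2 and B3, so such closeness is part of the choice and no agreement is read from it.

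Every region can be placed by its smallest −log10 p over B1, B2 and B3, called its weakest control value here. It lay from 5 to 6 in 1078 regions, from 6 to 7 in 450, from 7 to 8 in 209, from 8 to 10 in 157, from 10 to 15 in 42 and from 15 to 30 in 4. The median was 5.85. More of them therefore lay just above the cutoff than in all stronger classes together.

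Within a class of equal strength in the controls, the share lost was close with and without a CLBL-1 peak. From 5 to 6, 43.5% of the regions without a CLBL-1 call had no peak in B4 and B6, against 39.4% of those with one. From 6 to 7 the shares were 26.0% and 25.3%, from 7 to 8 they were 16.7% and 15.03%, and from 8 to 10 they were 8.63% and 7.15%. From 10 to 15 they had fallen to 1.94% and 1.49%. The share without a CLBL-1 call was the higher one in these 5 classes, and the difference was not tested because the regions of a library are not replicates. Regions that all 5 CLBL-1 libraries had were stronger in 17-71 too, with a median weakest control value of 13.4 against 8.27 where CLBL-1 had none.

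**Figure D3:**
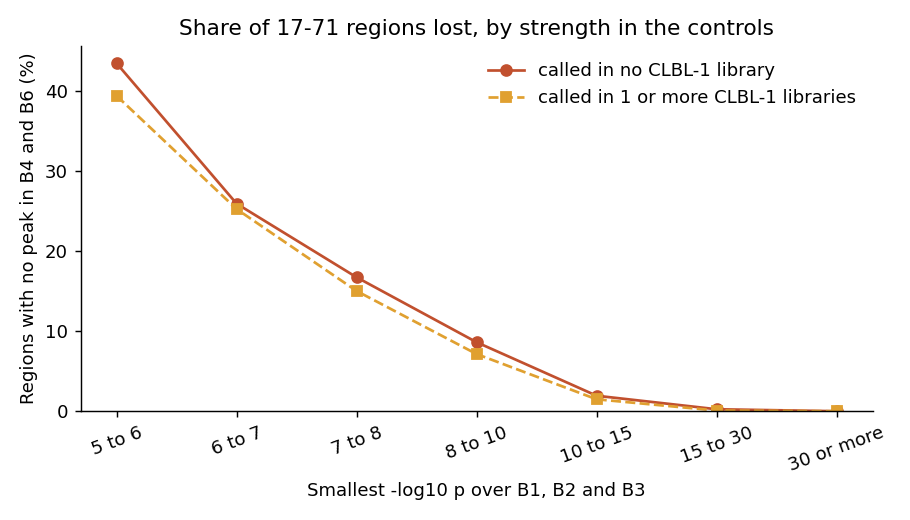
The share of regions with a peak in B1, B2 and B3 that had none in B4 and B6 is plotted in percent against the smallest −log10 p over the controls. Both lines fall from about 40% in the weakest class (43.5% without and 39.4% with a CLBL-1 call) to 0% at a −log10 p of 30 or more.

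How readily a C220 library calls a site can be read from its own weak peaks. Calls with a −log10 p from 5 to 6 had a median fold enrichment of 3.43 in B4 and 3.12 in B6, and of 3.31 in B1, 2.92 in B2 and 3.04 in B3, so the treatments overlapped in this measure. In 341 of the lost regions (17.6%) the fold enrichment was higher than the B4 value in every control library, and in 907 (46.8%) it was higher than the B6 value. For 117 regions (6.03%) it was higher in every control library than the level that 90% of the weak calls of B4 do not pass, a fold enrichment of 3.73. Fold enrichment was not scaled between libraries, so these counts describe the lists and do not test a change.

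Regions just inside and just outside the rule had overlapping values in the controls. The weakest region kept, on chromosome 13 from 54961686 to 54964164, had a −log10 p of 5.00 in B1, 5.50 in B2 and 6.46 in B3. Next came a region of chromosome X from 13196627 to 13197610 with 5.16, 6.88 and 5.00, and a region of chromosome 34 from 22387606 to 22389110 with 8.78, 5.00 and 5.78. In these 3 regions at least 1 control value was at the cutoff itself.

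On the other side, 3092 regions missed the rule only because of a single C220 call, and in 38.2% of them that call had a −log10 p under 6. The closest miss, on chromosome 36 from 4343948 to 4345220, had a −log10 p of 5.00 in B6 after 8.58, 12.3 and 6.97 in B1, B2 and B3. A region of chromosome 24 from 31791999 to 31793659 had 5.00 in B4 after 13.5, 5.20 and 9.34. A region of chromosome 4 from 55148659 to 55149665 had 5.00 in B6 after 13.97, 8.18 and 6.65. In the controls each of these 3 was stronger than the 3 weakest regions kept, by its weakest value.

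The 10 strongest lost regions, ranked by their weakest control value, stand clear of the cutoff. The first, on chromosome 27 between positions 38140464 and 38141075 of CanFam3.1, had fold enrichments of 3.27 in B1, 3.20 in B2 and 3.18 in B3. Its −log10 p was 30.7, 22.2 and 24.9. With 612 bp it is narrow, and no other lost region passed a weakest control value of 20. The nearest peak of B4 or B6 lay 2692 bp away.

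The second, also on chromosome 27 (positions 5347893 to 5349905), had fold enrichments of 4.05 in B1, 4.56 in B2 and 4.27 in B3, with a weakest control value of 16.1. The third lies inside GALM, the gene of galactose mutarotase, an enzyme of galactose breakdown, on chromosome 17 (30744783 to 30746526). It had fold enrichments of 4.24, 4.48 and 5.04 and a −log10 p of 15.3, 15.9 and 19.99. The closest CLBL-1 peak was 41864 bp from it, the farthest among these 10.

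The fourth, on chromosome 17 (59293501 to 59294731), had fold enrichments of 4.81 in B1, 4.59 in B2 and 4.75 in B3. The fifth, on chromosome 9 (2843113 to 2844498), had 3.91, 3.99 and 3.87. The weakest control values of these 2 were 15.3 and 14.9.

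The sixth, on chromosome 21 (24855950 to 24857687), had fold enrichments of 4.21 in B1, 3.81 in B2 and 3.66 in B3. The seventh, on chromosome 1 (72343180 to 72344236), had 4.67, 3.96 and 4.66. The eighth, on chromosome 12 (4622897 to 4623877), had 5.21, 4.51 and 4.41. In all 3 of them B1 was the highest library, as it was for most lost regions by −log10 p (1288 of 1940).

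The ninth, on chromosome 1 (27163766 to 27164695), had fold enrichments of 4.02 in B1, 4.21 in B2 and 3.81 in B3. The tenth, on chromosome 15 (44437691 to 44438751), had 4.35, 4.54 and 4.19, and here B2 was the highest. Its weakest control value was 12.9. None of the 7 other libraries had a peak in any of these 10 regions, as the rule demands.

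Gene names were available for few regions. The study's table of tested regions pairs regions with Ensembl genes, but only its rows of smallest p were at hand; 101 of the 1940 regions were among these rows and 32 of them carried a gene. Those rows were ordered by the study's own test of these libraries, so which regions carry a name depends on that test and their number is no result. By the table's annotation, 11 of the 32 lie inside a gene, 9 downstream, 8 upstream, 2 across a gene's start and 2 across its end. The gene symbols number 27, and 26 of these are in the RefSeq gene table of the dog assembly UU_Cfam_GSD_1.0. Of the lists of lymphoma, PRMT5 and cell cycle genes drawn up with earlier results known, the lists of lymphocyte migration and of NF-kB held 1 gene each (LCP1 and MAP3K14), and the other 11 lists held none.

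LCP1 (ENSCAFG00000004491) encodes L-plastin, a protein that bundles actin in blood cells. The region inside it, on chromosome 22 from 5010112 to 5011091, had fold enrichments of 2.28 in B1, 1.91 in B2 and 2.07 in B3. Its −log10 p was 13.5, 6.89 and 9.54. B1 was the highest control by both measures, and fold enrichment was low for a lost region in each of the 3. A peak of B4 or B6 lay 1696 bp away and a CLBL-1 peak 1703 bp away.

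MAP3K14 (ENSCAFG00000013774) encodes NIK, the kinase that starts the non-canonical NF-kB pathway of B cells. The region inside it, on chromosome 9 from 18256857 to 18257732, had fold enrichments of 2.15 in B1, 2.30 in B2 and 2.15 in B3. Its −log10 p of 6.09, 6.46 and 5.20 places it close to the cutoff. The nearest peak of B4 or B6 lay 1474 bp away and the nearest CLBL-1 peak 1459 bp away.

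The other named regions are grouped here by the known role of the gene, which was not tested as a theme. Some belong to genes of immune signalling. CD200, a surface protein that restrains myeloid cells, has a lost region downstream of it, with fold enrichments of 3.82 in B1, 3.44 in B2 and 3.38 in B3. SETD6 encodes a lysine methyltransferase that acts on the NF-kB subunit RELA, and the region inside it had 3.99, 3.22 and 3.21. Downstream of IRF2BP2, which encodes a corepressor of IRF2, the values were 2.19, 3.21 and 2.70. B1 was the highest library at CD200 and SETD6 and the lowest at IRF2BP2. CFP, the gene of the complement factor properdin, has a region upstream with 2.08, 2.22 and 2.13.

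Several named regions lie at genes of RNA handling. The region downstream of EIF1, a translation initiation factor that helps to choose the start codon, had fold enrichments of 2.29 in B1, 2.497 in B2 and 2.37 in B3 and a weakest control value of 10.1. The region downstream of DDX3X, an RNA helicase gene, had 4.20, 3.54 and 3.50. Upstream of CRNKL1, whose product is a component of the spliceosome, the values were 2.70, 2.23 and 2.16. Of these 3, the DDX3X region was the highest in each control library. The region upstream of TRIT1, which encodes an enzyme that modifies tRNA, had 2.83, 2.44 and 2.43, and the region across the end of PABPN1, a gene of poly(A) tail binding, had 3.33, 3.15 and 3.01. Upstream of NUP58, a nuclear pore gene, the values were 3.51, 3.18 and 2.996.

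Genes of chromatin and of cell division also appear. L3MBTL2 encodes a Polycomb group protein, and the region upstream of it had fold enrichments of 3.01 in B1, 2.87 in B2 and 3.102 in B3. DEPDC1B, a gene tied to entry into mitosis, has a region across its end with 4.39, 5.30 and 4.95. CDCA2, which encodes a partner of protein phosphatase 1 on mitotic chromosomes, has a region inside with 1.94, 2.13 and 2.28. Of these 3, the DEPDC1B region was the highest in every control library and the CDCA2 region the lowest.

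The rest include regions at cytoskeletal and metabolic genes. MYL9, a myosin light chain gene, has a region downstream with fold enrichments of 6.09 in B1, 3.35 in B2 and 3.47 in B3, so that B1 stands far above the other controls. The region across the start of RAPH1, whose product promotes the growth of actin-rich cell edges, had 3.64, 3.18 and 3.92. The region inside ARG2, the gene of mitochondrial arginase, had 3.70, 3.805 and 3.47 and a weakest control value of 11.8. The amino acid transporter genes SLC36A3 and SLC38A5 each have a region upstream, with 3.73, 4.25 and 3.73 at the former and 2.75, 2.54 and 2.44 at the latter. The other symbols are APPL1, APOLD1, OGFRL1, PXT1, STRADB and the RNA family RF00016, with weakest control values from 5.27 (RF00016) to 9.17 (STRADB).

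The lost regions were compact. Their median width was 1032 bp (interquartile range 832 to 1351), against 1237 bp for the 17-71 regions that stayed called and 1368 bp for the lost regions with a CLBL-1 call. Only 17 of them (0.876%) reached 3000 bp, against 2.51% and 8.19% in these groups. The merged regions of these groups include peaks of C220 or CLBL-1 libraries, which the lost regions lack by the rule, so merged widths are not like for like. The widest, on chromosome 30 from 17403589 to 17407936, spans 4348 bp and had fold enrichments of 3.07 in B1, 2.75 in B2 and 2.69 in B3. A region of chromosome 10 from 6805352 to 6809688 spans 4337 bp and had 3.89, 2.73 and 2.81, and a region of chromosome 5 from 79533051 to 79537253 spans 4203 bp and had 2.57, 2.69 and 2.52. Great width did not go with great strength in these 3, whose weakest control values were 5.04, 5.08 and 7.001. The single peaks, before merging, had median widths of 826.5 bp in B1, 788 bp in B2 and 822 bp in B3 at the lost regions, against 875, 820 and 856 bp at the lost regions with a CLBL-1 call and 1013, 1027 and 1029 bp at the 17-71 regions that stayed called. Before merging, the lost regions thus had narrower peaks than both groups in 3 of 3 control libraries, with the wider gap to the regions that stayed called.

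All 1940 regions had some sequence that the peaks of B1, B2 and B3 had in common. This shared stretch took up 63.3% of the region in the median, against 73.6% in the regions that stayed called and 52.4% in the lost regions with a CLBL-1 call. The merged regions of the comparison groups include peaks of C220 or CLBL-1 libraries, so these shares are not like for like either. In 99.6% of the regions each control library had a single peak. No peak of B4 or B6 came nearer than 1243 bp to a lost region, although 725 regions (37.4%) had one within 10000 bp. A CLBL-1 peak lay within 10000 bp of 710 regions (36.6%) and within 1000 bp of 12.

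The lost regions were spread over the chromosomes much as the regions shared by the controls were. Chromosome 1 had the most, 107 regions or 5.52%, and held 6.14% of the regions called in all 3 controls. Chromosome 7 followed with 97 regions, 5.00% against 3.78%. Chromosome 14 held 76 regions, 3.92% against 2.61%, the highest ratio of these shares (1.503), followed by chromosome 33 (1.497). On chromosome 14, 62.4% of the regions shared by the controls had no CLBL-1 call, the highest value of the 39 chromosomes, and 17.5% of these were lost, near the median over chromosomes of 17.1%. The share lost was highest on chromosome 32, with 27 of 98 regions (27.6%), and lowest on chromosomes 13 and 16 (12.8% each).

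Most lost regions stood alone. When regions up to 100000 bp apart were joined, 1416 (73.0%) had no other lost region near them, and 100 regions fell into 32 groups of 3 or more. No such count over other regions is given here, so standing alone is not read as a trait of the lost regions. The largest group lies on chromosome 17 from 19537819 to 19885286 and holds 6 lost regions among 19 merged regions. Of all 19, B1 had 17, B2 had 14 and B3 had 12, and B4 had 7 and B6 had 6. In the 13 regions that the rule did not choose, B1 had 11 peaks, B2 had 8 and B3 had 6, and B4 had 7 and B6 had 6. These 13 are what the rule left after taking regions out by the same calls, so no overlap of treatments is read from them. The weakest control values of the 6 ran from 5.17 to 7.71, so none of them was strong.

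Among the 6, the fifth (19830207 to 19831649) had the highest weakest control value (7.71), with fold enrichments of 5.67 in B1, 3.73 in B2 and 4.14 in B3. The second (19625905 to 19627263) had 5.25, 3.78 and 3.32, and its −log10 p in B1 was higher (17.0 against 12.7). The fourth (19765482 to 19766497) had 4.12, 3.01 and 4.66, and there B3 was the highest. Between them lie regions called in B4, B6 and CLBL-1 libraries, so the group is no continuous stretch without peaks.

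The group of 4 lies on chromosome 4 from 24161047 to 24326894, with weakest control values from 5.30 to 8.86. Of its 13 other merged regions B1, B2 and B3 had 10, 9 and 8, and B4 and B6 had 7 and 8. Among the groups of 3, the first by median weakest control value (10.6) lies on chromosome 3 from 13022166 to 13124068, with weakest control values from 7.37 to 11.5. Of its 4 other merged regions B1, B2 and B6 had 1 each and B3 and B4 had 0, while C2 and C5 had 2 each, C3 and C4 had 3 each and C6 had 1. Over all merged regions of the group on chromosome 4, B1, B2 and B3 had 14, 13 and 12, and B4 and B6 had 7 and 8. On chromosome 3 they had 4, 4 and 3, and 0 and 1. The rule chose the lost regions by these calls, so neither kind of count compares the treatments.

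**Figure D4:**
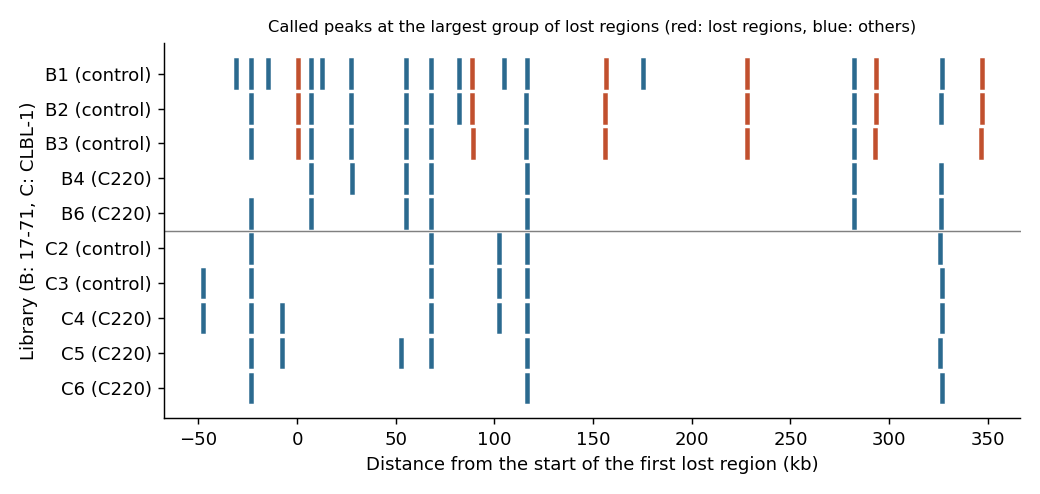
Each mark is the middle of a called peak (marks are not drawn to peak width), by library and by distance in kb from the start of the first of the 6 lost regions on chromosome 17. The 6 red columns appear in B1, B2 and B3 alone, and several blue regions between them were called in B4, B6 and CLBL-1.

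Calls around the lost regions can be compared between treatments, since the rule used none beyond peaks close enough to merge. The question is whether peaks near the lost regions were missing in B4 and B6 more than elsewhere. The regions with a CLBL-1 call can never belong to the chosen set, and 957 of them lay within 10000 bp of a lost region. In B1, B2 and B3, 67.9%, 56.3% and 56.1% of these 957 had a peak, against 64.4%, 52.7% and 50.8% of the 31483 such regions farther away. In B4 and B6 the shares were 42.2% and 49.1% near the lost regions, against 38.9% and 45.5% farther away. In each of the 5 libraries, then, regions near a lost site were called somewhat more often than distant ones.

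The excess near the lost regions was 4.16 ± 0.997 percentage points (SD, n = 3) in control and 3.46 ± 0.268 points (SD, n = 2) in C220 libraries of 17-71. The difference of -0.697 points was smaller than the spread between control libraries (two-sided exact permutation test, p = 0.6; 3 libraries against 2 cannot go below 0.1). It was larger with a window of 50000 bp (-1.71 points) and with all regions that were not chosen as neighbours (-1.80 points). The two-sided exact permutation test gave p = 0.2 for each. The spread between libraries at these settings is not given here, and the second set leaves out regions by the calls compared. Without B3 the difference at the main setting was -0.12 points. In CLBL-1, regions with a 17-71 call that were not themselves chosen served as neighbours. The rule required the regions left out to have no CLBL-1 call, so it shapes these shares, by an amount that was not tested. The excess in CLBL-1 was 2.02 ± 0.522 points (SD, n = 2) in control and 2.73 ± 0.606 points (SD, n = 3) in C220 libraries. That difference, 0.710 points, was larger than the SD of either group but did not pass the test (two-sided exact permutation test, p = 0.3), and it was 0.34 points without C2, 0.45 without C6 and 1.08 without C3. Set against regions near 17-71 sites that stayed called, those near the lost regions differed by -1.55 ± 0.573 points (SD, n = 3) in control and -1.91 ± 0.841 points (SD, n = 2) in C220 libraries of 17-71. The difference between treatments was -0.358 points there (two-sided exact permutation test, p = 0.6) and 0.630 points in CLBL-1 (p = 0.5). With 4 comparisons in this family, the Benjamini-Hochberg adjusted value of each exact test is 0.6. Call rates in B4 and B6 were below those of B1, B2 and B3 both near the lost regions and far from them. With a smallest possible p of 0.1, these exact tests cannot show whether the neighbourhood changed. The p-values measure only the spread between libraries, which the study describes as coming from biological triplicate experiments, though the labels tie no library to a culture.

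**Figure D5:**
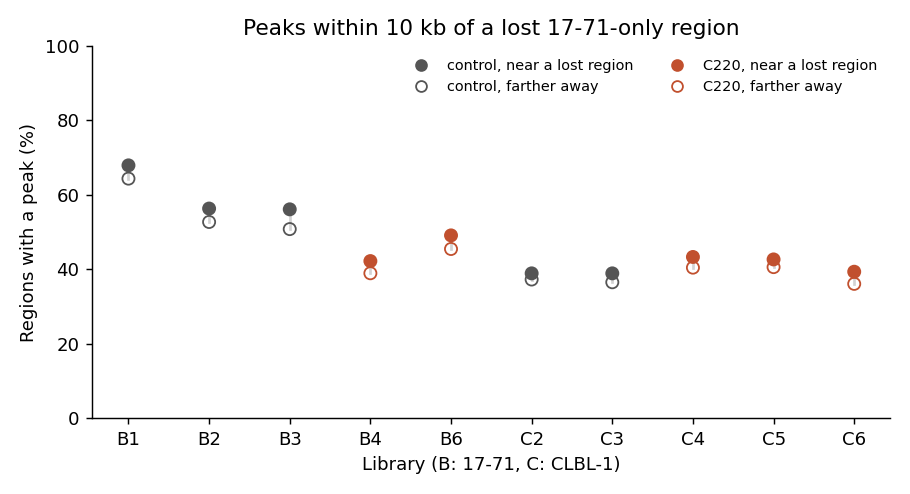
Filled points give the percentage of regions within 10 kb of a lost region that had a peak in each library, open points the same percentage for regions farther away; grey is control and red is C220. The filled point is above the open one in all 10 libraries, by 3.27 to 5.31 percentage points in 17-71 and by 1.65 to 3.26 points in CLBL-1. The regions compared in CLBL-1 leave out the lost regions, which have no CLBL-1 call by the rule.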

How the data were processed

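Read pairs were aligned by the authors to the dog genome CanFam3.1 with Bowtie2 2.2.4 and broad peaks were called with MACS2 in paired-end mode, library by library, at a p cutoff of 1e-05 and with the genome size set to human. No source used here gives the version of MACS2. The deposited lists give the fold enrichment (a ratio to the local background), −log10 p-values, −log10 q-values and a whole-number score. Fold enrichment and −log10 p were used. Deeper libraries reach the cutoff at a lower fold, so an absent call does not show a closed site.

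Touching or overlapping peaks of all libraries were joined, and 1 bp of a peak counted as a call. The value of a region in a library is that of its strongest peak. The regions, gene lists and rules for naming (the 10 strongest, the 3 weakest, the 3 widest, the 3 largest groups, and listed genes) were chosen with earlier results of these data known. The other gene names were given because the study's region table pairs them with a region. Its measured values were not used. Neighbours were compared by two-sided exact permutation of libraries within a line. Merging was tested on 40000 simulated sites, where all 517 sites with the pattern and no others were found, and equalled bedtools 2.31.1 in 59420 of 59420 regions. Python 3.11.15, numpy 2.4.6, pandas 2.3.3 and matplotlib 3.10.9 were used. No genome of CanFam3.1 was used, so sequences, motifs and gene starts were not analysed here. Coordinates are 1-based.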

Additional observations from a re-analysis of the deposited data

How the results depend on the processing

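The number of lost regions depended on the lists and on single libraries. When each list was limited to its 20000 strongest peaks it was 413, and 109 of the 1940 regions were among them. With peaks of a −log10 p of at least 7 it was 1975, but only 412 of the 1940 were among these, so a like number hides a different set. The other changes of merging, overlap, fold or distance gave from 1346 to 2678. Leaving out each library in turn gave from 1965 to 4585: 4585 without B6, 3568 without B3, 3042 without B2, 2390 without B4 and 2190 without B1. Each of these drops a condition of the rule, so counts above 1940 are built in. Median width ranged from 878 to 1135 bp over all these settings. The difference in calls near the lost regions kept its sign in all alternatives, from -1.80 to -0.12 points in 17-71 and from 0.34 to 1.11 in CLBL-1, including a comparison with regions near 17-71 sites that stayed called, which was added after seeing the data. These alternatives reuse the same libraries, so the kept sign is no separate evidence of a difference. The share of regions near gene starts, GC content and motifs, planned with an annotation of CanFam3.1, were not run. No paired analysis was possible because the labels number the libraries of a line in 1 run across control and C220, and the replicate numbers used here follow accession order and pair nothing. Depth limits what absence means, and with 5 libraries a line the exact test cannot fall below 0.1.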

Other observations

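Some tight groups of lost regions lie in stretches that CLBL-1 lacks altogether. These were picked out after their values were seen. On chromosome 5 from 11071749 to 11104502, a span of 32754 bp, 3 of 5 merged regions were lost. The calls in these 3 are fixed by the rule, and in the 2 others B1 had 1 peak, B2 had 2 and B3, B4, B6 and all CLBL-1 libraries had 0. The weakest control values of the 3 ran from 7.10 to 10.5. On chromosome 33 from 27197347 to 27301580, 3 of 7 merged regions were lost. In the 4 others B1 had 4 peaks, B2, B3 and B6 had 1 each, and B4 and all CLBL-1 libraries had 0. Their weakest control values ran from 5.78 to 11.1.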
